A study of Mus musculus with 4 samples.

Results

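Genes of the thioredoxin and peroxiredoxin system were followed in B16F10 cells, a pigmented mouse melanoma line, given 2 µM plumbagin for 24 h and compared with cells given MilliQ water (0 µM plumbagin). The genes were picked out of the table by symbol, with no value entering the rule, although the set was drawn up with earlier results of these data known: 10 genes were named (Txn1, Txn2, Txnrd1, Txnrd2 and Prdx1 to Prdx6), and 8 of them were among the 17097 genes compared. No probe set in the annotation used here carried Prdx5 or Prdx6 as its only gene, and these peroxiredoxins were not analysed here. The 8 genes had 18 probe sets, and each gene was represented by the brightest of its own (the highest mean over 4 arrays). There were 2 arrays per group (plumbagin 1 and 2, control 1 and 2), each of total RNA from 1 sample, and the values are log2 expression values. Nothing in the labels tells whether samples of the same treatment came from separate cultures, so the p-values describe the spread between these samples and that spread may be technical.

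Peroxiredoxins are abundant thiol peroxidases that reduce hydrogen peroxide with a reactive cysteine. The oxidised cysteines of Prdx1, Prdx2, Prdx3 and Prdx5 are reduced by thioredoxin, a small dithiol protein. Thioredoxin reductase, a selenoprotein, recharges thioredoxin with electrons from NADPH. The cytosol relies on Txn1 and Txnrd1, mitochondria on Txn2 and Txnrd2. Plumbagin is a plant naphthoquinone that can redox-cycle and react with thiols, and the transcription factor NRF2, released from KEAP1 by electrophiles, drives several genes of this system through antioxidant response elements.

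The letters TGACNNNGC, the core of the antioxidant response element, were searched on both strands in RefSeq promoter windows of build GRCm38.p6, which run from 250 bases before to 50 after a gene's start. The windows held an entry for 9 of the 10 genes, and for all 8 measured ones. A match was present in the windows of 2 genes, Prdx1 and Txnrd1 (in 1 of the 3 windows of Txnrd1), that is 2 of 9 genes, against 13.99% of all 27025 genes with a window, or 2 of 11 windows, against 12.4% of all 32851 windows. These windows are shown, with that of Srxn1, which encodes sulfiredoxin, the enzyme that repairs over-oxidised peroxiredoxins, because they bear the letters through which a quinone response would be sought; capitals mark the match. The Prdx1 window is chr4:116685349-116685648 on the plus strand, with the match beginning 133 bases before the start site. The Txnrd1 window is chr10:82858956-82859255 on the plus strand, with the match beginning 92 bases before the start site. The Srxn1 window is chr2:152105274-152105573 on the plus strand, with the match beginning at base 29 counted from the start site. The Prdx1 match also contains TGAGTCA, the letters of an AP-1 site. These letters also occur in the Srxn1 window outside its match, and their reverse complement TGACTCA occurs in the Prdx1 window outside its match. A match describes the letters and does not show that a factor binds there.
Prdx1: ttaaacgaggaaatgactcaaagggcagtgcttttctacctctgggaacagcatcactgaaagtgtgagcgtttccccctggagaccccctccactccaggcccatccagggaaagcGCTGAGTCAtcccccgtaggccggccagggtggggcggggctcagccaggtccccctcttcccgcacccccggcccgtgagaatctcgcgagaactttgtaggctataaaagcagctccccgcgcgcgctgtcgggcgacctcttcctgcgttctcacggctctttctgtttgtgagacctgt
Txnrd1: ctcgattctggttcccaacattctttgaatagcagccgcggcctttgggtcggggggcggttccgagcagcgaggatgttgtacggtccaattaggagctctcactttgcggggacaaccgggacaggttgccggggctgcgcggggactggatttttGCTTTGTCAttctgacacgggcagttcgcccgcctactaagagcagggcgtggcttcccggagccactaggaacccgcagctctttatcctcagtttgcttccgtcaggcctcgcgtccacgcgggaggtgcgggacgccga
Srxn1: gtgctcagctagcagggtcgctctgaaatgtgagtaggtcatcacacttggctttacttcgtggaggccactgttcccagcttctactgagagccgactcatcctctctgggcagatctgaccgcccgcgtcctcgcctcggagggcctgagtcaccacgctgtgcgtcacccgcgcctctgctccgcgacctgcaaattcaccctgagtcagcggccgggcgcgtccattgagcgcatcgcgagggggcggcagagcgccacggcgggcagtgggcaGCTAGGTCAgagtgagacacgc

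All 8 melanocyte markers, Tyr, Tyrp1, Dct, Pmel, Mlana, Mitf, Sox10 and Gpnmb, were well above background, with mean log2 values between 10.85 and 12.32. Of 17 measured markers of fibroblasts, leukocytes, endothelium and keratinocytes, 15 lay at or below the 95th percentile of 41 odorant receptor genes (log2 5.05), which were assumed to be silent and served as a background level. The exceptions were Cd3e and Kdr. Plumbagin 1 stood apart from the other arrays. Its hybridization spike-in controls averaged 9.58 (log2, 18 probe sets), against 8.67 on plumbagin 2 and 8.46 and 8.77 on the controls. Among genes of middle brightness its differences from control 1 leaned downward: the median of all 2024 genes with a mean between 7 and 8 was -0.17 between plumbagin 1 and control 1 and within 0.01 of 0 between plumbagin 2 and control 2, whereas for the 828 genes between 9 and 10 these medians were -0.09 and 0.01. The part of this shift in the results below was not tested beyond the values given with cyclic loess normalization and without plumbagin 1.

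After 24 h of plumbagin, none of the 8 measured genes passed the test, and the fitted changes were small. The cytosolic genes Txn1, Txnrd1, Prdx1 and Prdx2 and the mitochondrial Prdx3 had slightly higher means with plumbagin, by 0.02 to 0.19 on the log2 scale, and the mitochondrial Txn2 and Txnrd2 and the endoplasmic reticulum peroxiredoxin Prdx4 had lower means, by -0.12 to -0.14. The median difference of the 8 genes was 0.02 (1.02-fold), beside -0.01 for all 17097 genes. For the 8637 genes above the background level, as all 8 were, it was -0.05. With limma and Benjamini-Hochberg adjustment over all genes tested, 0 of the 8 were called, against a background of 0% of all genes (adjusted p = 1 for each of the 8). At an unadjusted p under 0.05 the counts were 0 of 8 and 169 of 17097. The 95% intervals of the 8 differences ran at most from -0.46 (Txnrd1) to 0.67 (Txn1), that is from 0.728-fold to 1.59-fold of the control level. A doubling or a halving lay outside each of these intervals. The intervals hold for the brightest probe sets and carry only the spread between these samples, which may be technical. In bulk RNA of a culture, a change in fewer cells and a smaller change in every cell cannot be told apart.

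**Figure D1:**
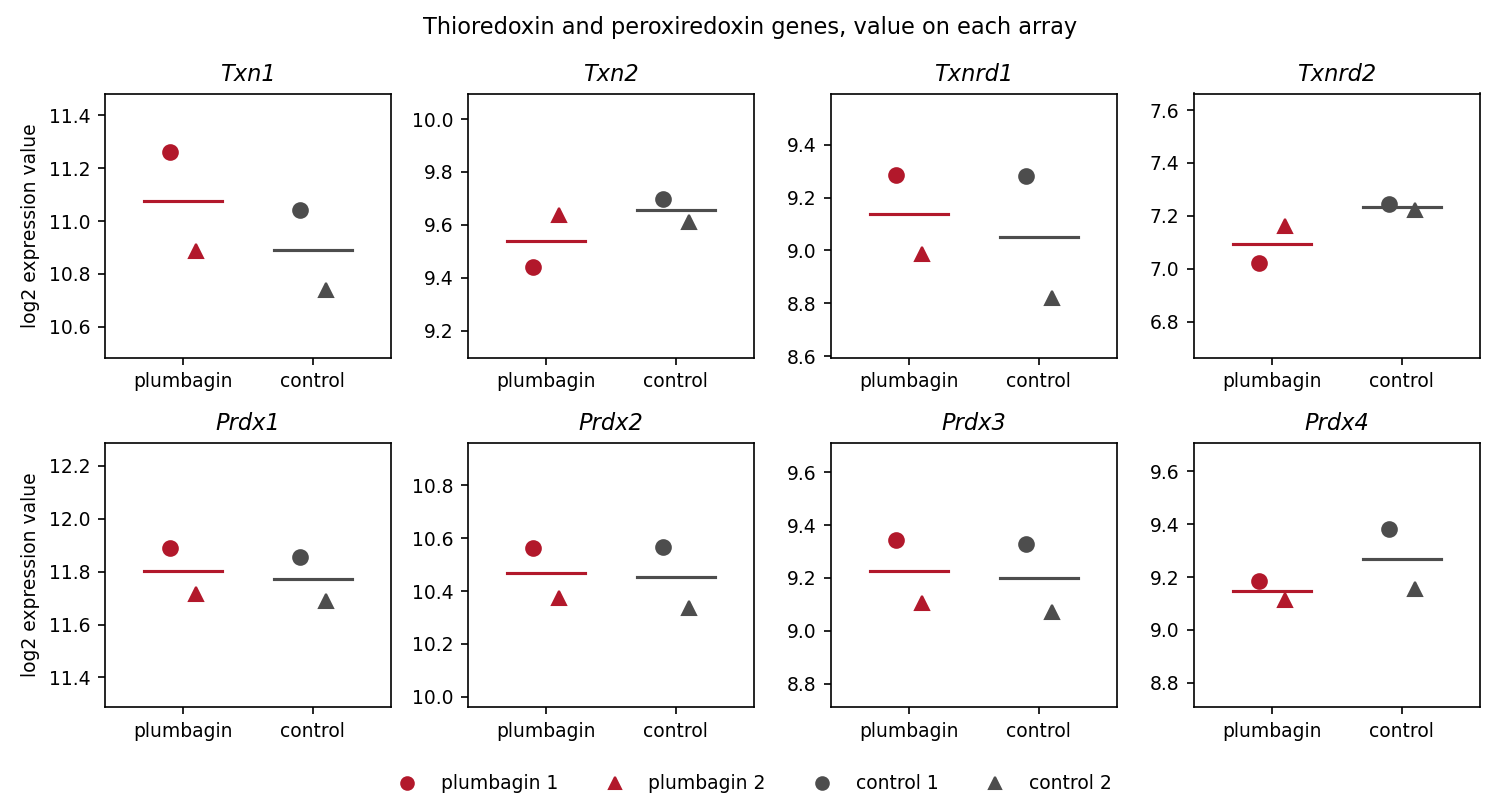
Log2 expression value of each of the 8 measured genes on every array, with plumbagin (red) left of control (grey); circles are the arrays numbered 1, triangles those numbered 2, lines are group means, and each panel spans 1 log2 unit. Only for Txnrd2 do the 2 plumbagin arrays, at 7.02 and 7.16, lie apart from the controls, at 7.24 and 7.22.

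Thioredoxin itself came first in size among the higher means. Txn1, the cytosolic and nuclear thioredoxin, had log2 values of 11.26 and 10.89 in plumbagin 1 and 2, against 11.04 and 10.74 in control 1 and 2. Each plumbagin array was above the control of its own number, by 0.22 and 0.15, but the groups overlapped, because plumbagin 2 lay below control 1. The mean was 11.08 ± 0.26 with plumbagin and 10.89 ± 0.21 in controls (SD, n = 2 each), a difference of 0.19 ± 0.18 (SE), 1.14-fold, with a 95% interval from -0.30 to 0.67. The differences were 0.28 and 0.15 after cyclic loess, and the mean difference was -0.0013 without plumbagin 1.

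Txn2, the mitochondrial thioredoxin, had 9.44 and 9.64 in plumbagin 1 and 2, against 9.70 and 9.61 in control 1 and 2. Here the replicate numbers went opposite ways: plumbagin 1 was below control 1 by -0.26, and plumbagin 2 differed from control 2 by 0.02. The mean was 9.54 ± 0.14 with plumbagin and 9.66 ± 0.06 in controls (SD, n = 2 each), a difference of -0.12 ± 0.11 (SE). All 3 probe sets of Txn2 gave this pattern, with differences of -0.20 to -0.28 in number 1 and of 0.02 in number 2. After cyclic loess the number 1 difference was -0.16.

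Of the reductases, the cytosolic Txnrd1, whose window holds the response element letters shown above, had 9.29 and 8.99 in plumbagin 1 and 2, against 9.28 and 8.82 in control 1 and 2. Its values followed the array number more than the treatment, with both number 1 arrays, at 9.29 and 9.28, above both number 2 arrays. Plumbagin differed from control by 0.01 in number 1 and by 0.17 in number 2, and on average by 0.09 ± 0.20 (SE), with group means of 9.14 ± 0.21 and 9.05 ± 0.33 (SD, n = 2 each). The average difference was -0.06 without plumbagin 1 and -0.14 without control 2. Txnrd1 had a single probe set.

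Txnrd2, the mitochondrial reductase, was the only measured member whose groups did not overlap on its brightest probe set. It had 7.02 and 7.16 in plumbagin 1 and 2, against 7.24 and 7.22 in control 1 and 2. The mean was 7.09 ± 0.10 with plumbagin and 7.23 ± 0.02 in controls (SD, n = 2 each), a difference of -0.14 ± 0.09 (SE), 1.10-fold lower, with a 95% interval from -0.39 to 0.10. Among the 8 genes 1 was thus apart in the lower direction, against a background of 15.2% of all genes, and 0 in the higher direction, against 10.2%. All 4 probe sets of Txnrd2 had lower means with plumbagin, by -0.02 to -0.15, and 1 of them was below the background level. Those with means of 6.14 and 5.15 overlapped, and the one below background did not. The Txnrd2 differences within the numbers were -0.22 and -0.06, and -0.08 and -0.07 after cyclic loess.

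The peroxiredoxins of the cytosol differed by 0.03 (Prdx1) and 0.02 (Prdx2) between the group means. Prdx1, which also acts as a peroxide sensor and has the response element letters in its window, had 11.89 and 11.72 in plumbagin 1 and 2, against 11.86 and 11.69 in control 1 and 2. Both numbers gave a difference of 0.03, as did the second probe set of Prdx1 (0.04 and 0.03), and the groups overlapped. The mean difference was 0.03 ± 0.11 (SE), with a 95% interval from -0.27 to 0.33, and was -0.05 without plumbagin 1 and -0.05 without control 2.

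Prdx2, a cytosolic peroxidase abundant in red cells, had 10.56 and 10.37 in plumbagin 1 and 2, against 10.57 and 10.34 in control 1 and 2. The groups overlapped, and the mean difference was 0.02 ± 0.13 (SE), with a 95% interval from -0.33 to 0.36. Its second, dimmer probe set disagreed, with 7.11 and 7.50 in plumbagin 1 and 2, against 7.64 and 7.43 in control 1 and 2. That is -0.52 in number 1 and 0.07 in number 2, so with both probe sets averaged the sign of Prdx2 turned (-0.10). The RefSeq table lists the pseudogenes Prdx1-ps, Prdx2-ps1 and Prdx2-ps2, and whether probes of Prdx1 or Prdx2 also read such copies was not tested.

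Prdx3, the mitochondrial peroxidase that draws on Txn2 and Txnrd2, had 9.34 and 9.11 in plumbagin 1 and 2, against 9.33 and 9.07 in control 1 and 2. The differences were 0.02 in number 1 and 0.04 in number 2, and the groups overlapped. The mean difference was 0.03 ± 0.14 (SE), with a 95% interval from -0.35 to 0.41.

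Prdx4, the secretory pathway peroxidase that passes oxidising equivalents to protein disulfide isomerases, had 9.18 and 9.11 in plumbagin 1 and 2, against 9.38 and 9.15 in control 1 and 2. Control 1 was the high array, and plumbagin 1 lay above control 2, so the groups overlapped. The mean difference was -0.12 ± 0.11 (SE), with a 95% interval from -0.42 to 0.18. The 3 brighter of its 4 probe sets had lower means with plumbagin, by -0.08 to -0.12. The remaining one, at a mean of 2.85, was below the background level and had a difference of 0.04. Of the 3 brighter ones, that with a mean of 6.74 did not overlap. It had 6.73 and 6.63 in plumbagin 1 and 2, against 6.83 and 6.76 in control 1 and 2.

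**Figure D2:**
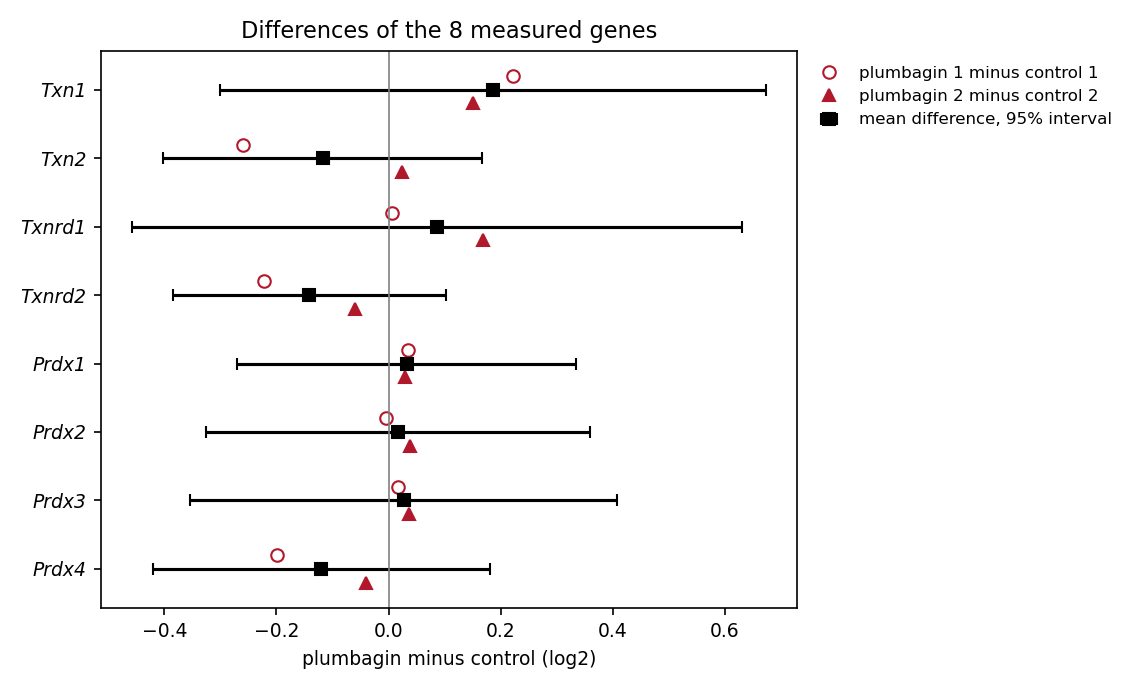
Plumbagin minus control on the log2 scale for the 8 measured genes: squares are mean differences with 95% intervals from limma, open circles are plumbagin 1 minus control 1 and filled triangles plumbagin 2 minus control 2. Every interval includes 0, and the pairs of points lie closest together for Prdx1, Prdx2 and Prdx3.

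Set side by side by replicate number, 4 of the 8 genes (Txn1, Txnrd1, Prdx1 and Prdx3) were higher with plumbagin within both numbers, against 21.7% of all genes, and 2 (Txnrd2 and Prdx4) were lower within both, against 29% of all genes. The median difference was 0.00 in number 1, where the differences ran from -0.26 to 0.22, and 0.03 in number 2, where they ran from -0.06 to 0.17. These counts use differences as small as 0.01, well under the spread between arrays of a group. The sign of the median depended on the arrays used. It was 0.12 without control 1 and 0.12 without plumbagin 2, against -0.12 without control 2 and -0.07 without plumbagin 1.

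The arrays numbered 1 had more signal for most of these genes than those numbered 2, whatever the treatment. Control 1 was above control 2 for all 8 genes, by 0.02 (Txnrd2) to 0.46 (Txnrd1) with a median of 0.23, against 59.2% of all genes. Both number 1 arrays lay above both number 2 arrays for 6 of the 8 genes, against 30% of all genes. For Txn2 and Txnrd2, which made the exceptions, plumbagin 1 was below plumbagin 2, by -0.20 and -0.14. The mean difference between the numbers was larger in size than that between the treatments for 6 of the 8 genes, against 61.5% of all genes. For Txnrd1 it was 0.38, against 0.09 for the treatment, and for Prdx1 0.17, against 0.03. What the numbers stand for is not in the labels, and no test of this difference was made.

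**Figure D3:**
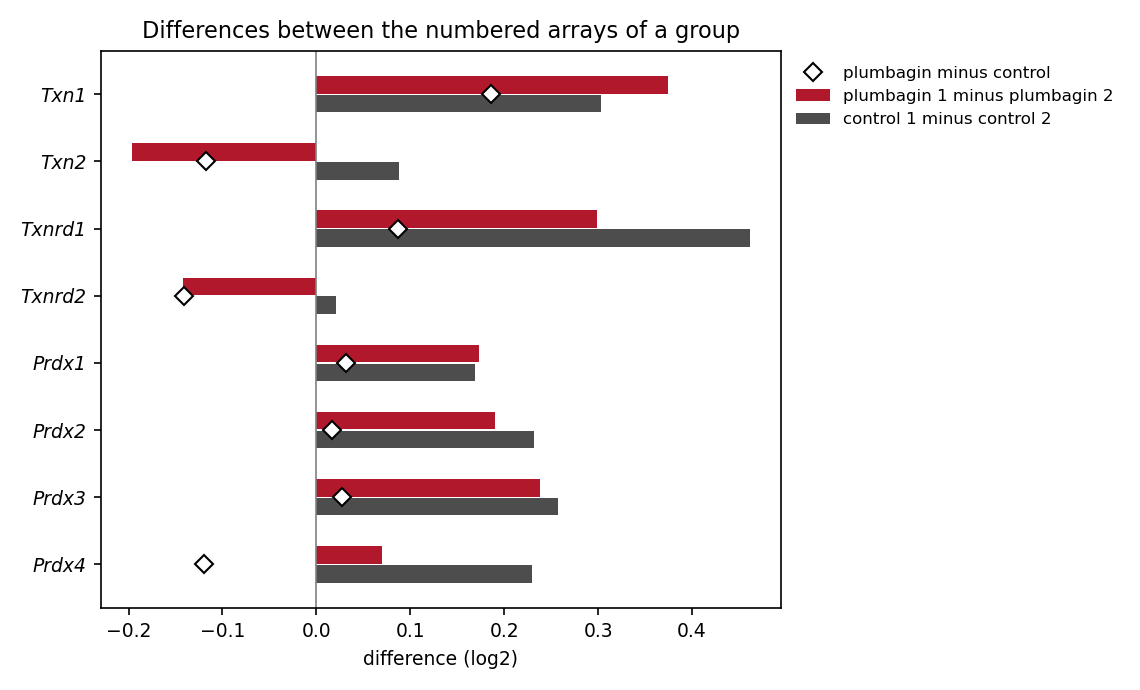
Differences on the log2 scale for the 8 measured genes: red bars are plumbagin 1 minus plumbagin 2, grey bars control 1 minus control 2, and white diamonds the mean of plumbagin minus that of control. Grey bars are above 0 for all 8 genes and reach 0.46 for Txnrd1, whereas no diamond is beyond 0.19.

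Genes around the system were read from 4 companion lists of 41 entries, 40 of them measured, and again 0 passed the test in either direction by limma (adjusted p = 1 for each, 0 of 40 at an unadjusted p under 0.05). Of the 14 thioredoxin fold and glutaredoxin relatives, 5 had higher and 9 lower means with plumbagin (median -0.08). Their 4 smallest p-values belonged to Txndc17, a thioredoxin-like cytosolic protein reduced by Txnrd1 (0.12 ± 0.08, SE), Txndc9 (-0.16 ± 0.13), the splicing factor Txnl4a (-0.13 ± 0.12) and the mitochondrial glutaredoxin Glrx2 (-0.13 ± 0.13). After cyclic loess the differences were 0.18 for Txndc17, -0.09 for Txndc9, -0.07 for Txnl4a and -0.06 for Glrx2. Txndc17 had 8.56 and 8.65 in plumbagin 1 and 2, against 8.46 and 8.51 in control 1 and 2, and did not overlap. Its second bright probe set, with 8.15 and 8.25 in plumbagin 1 and 2, against 8.35 and 8.19 in control 1 and 2, had a lower mean with plumbagin (-0.06) and overlapped, and with its probe sets averaged the difference of Txndc17 was 0.011. On their brightest probe sets 2 genes of this list were apart in the higher direction and 0 in the lower. Over all genes the shares were the 10.2% and 15.2% given above. The 2 were Txndc17 and the reductase Txnrd3, which differed by only 0.0015 in number 1. The other probe sets of Txnrd3, with differences of 0.03 and -0.04, overlapped. A dimmer probe set of Glrx2 was apart in the lower direction. It had 6.32 and 6.43 in plumbagin 1 and 2, against 6.45 and 6.46 in control 1 and 2.

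Of the 14 regulators and clients, 6 had higher and 8 lower means (median -0.10). The 4 with the smallest p were Msra, Msrb2 and Msrb3, methionine sulfoxide reductases that thioredoxin recharges, and Sesn2, a stress-induced sestrin. Msra had 5.59 and 5.58 in plumbagin 1 and 2, against 5.66 and 5.88 in control 1 and 2, a difference of -0.18 ± 0.11 (SE) without overlap. Msrb2, at a mean of 5.12 close to the background level, had 4.95 and 5.08 in plumbagin 1 and 2, against 5.36 and 5.09 in control 1 and 2. Its difference was -0.21 ± 0.13, also without overlap, but only -0.0051 in number 2. Msrb3, whose mean was below the background level, differed by -0.15 ± 0.13, and Sesn2 by -0.16 ± 0.13. The second probe set of Sesn2, at a mean of 6.61, differed by -0.27 and did not overlap. It had 6.34 and 6.60 in plumbagin 1 and 2, against 6.85 and 6.64 in control 1 and 2. Msrb1, the fourth methionine sulfoxide reductase of the list, differed by 0.02 ± 0.13 and overlapped. On brightest probe sets, 2 of the 14 genes were apart in the lower direction, a share near the 15.2% of all genes. In the higher direction there were 0, against 10.2%.

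Srxn1, whose window is shown above, and Txnip, which binds and inhibits thioredoxin, were named for their role with their values known. Srxn1 had 6.98 and 6.55 in plumbagin 1 and 2, against 6.94 and 6.10 in control 1 and 2. Plumbagin was higher by 0.04 in number 1 and by 0.45 in number 2, but both number 2 arrays lay below both number 1 arrays. The mean difference was 0.24 ± 0.33 (SE) and turned to -0.18 without control 2. The second probe set of Srxn1 gave 0.14 and 0.27 and also overlapped. Those below the background level had mean differences of -5e-06 and 0.0012. Txnip had 8.24 and 5.10 in plumbagin 1 and 2, against 8.42 and 5.66 in control 1 and 2, so that its arrays differed far more by number than by treatment. Its differences in number 1 and 2 were -0.18 and -0.56. The second probe set of Txnip gave -0.86 and -0.18, with 7.21 and 5.31 in plumbagin 1 and 2, against 8.07 and 5.49 in control 1 and 2.

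Selenoprotein synthesis genes were included because thioredoxin reductases carry selenocysteine. Of 5 measured genes, 1 had a higher and 4 lower means (median -0.06), and the same 4 were lower within both numbers, against 29% of all genes. Eefsec, the elongation factor that delivers selenocysteine, had 8.93 and 8.98 in plumbagin 1 and 2, against 9.35 and 9.09 in control 1 and 2, a difference of -0.27 ± 0.12 (SE) with a 95% interval from -0.58 to 0.05. Sephs2, which makes the selenium donor, had 7.70 and 7.62 in plumbagin 1 and 2, against 8.03 and 7.76 in control 1 and 2, a difference of -0.23 ± 0.12 (SE). Its second, dimmer probe set also had a lower mean with plumbagin (-0.30) but overlapped. That probe set had 6.63 and 6.32 in plumbagin 1 and 2, against 6.98 and 6.56 in control 1 and 2. On their brightest probe sets Eefsec and Sephs2, 2 of the 5 genes, did not overlap, against 15.2% of all genes apart in the lower direction. After cyclic loess the differences were -0.21 for Eefsec and -0.17 for Sephs2. In number 1 Sephs2, at a mean of 7.78, differed by -0.33. The median of all genes with means of 7 to 8 was -0.17 in that number. Secisbp2 (-0.06 ± 0.19), which binds the selenocysteine insertion element, and Pstk (0.06 ± 0.27), a kinase acting on the selenocysteine tRNA, overlapped.

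On their brightest probe sets, 3 of 7 other peroxide and superoxide enzymes had higher and 4 lower means. Their median was -0.01, with differences between -0.05 and 0.06. Gpx8, a glutathione peroxidase family member of the endoplasmic reticulum, differed by 0.06 ± 0.09 (SE), Gpx4, which reduces lipid hydroperoxides, by -0.05 ± 0.09, catalase (Cat) by 0.03 ± 0.09 and the cytosolic superoxide dismutase Sod1 by -0.02 ± 0.14. None of the 7 was apart in either direction on its brightest probe set. A dimmer probe set of Sod2, at a mean of 5.99, was apart in the lower direction. It had 5.83 and 5.93 in plumbagin 1 and 2, against 6.16 and 6.05 in control 1 and 2 (-0.23). The other probe sets of Sod2, with differences of 0.01, -0.08 and 0.01, overlapped.

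**Figure D4:**
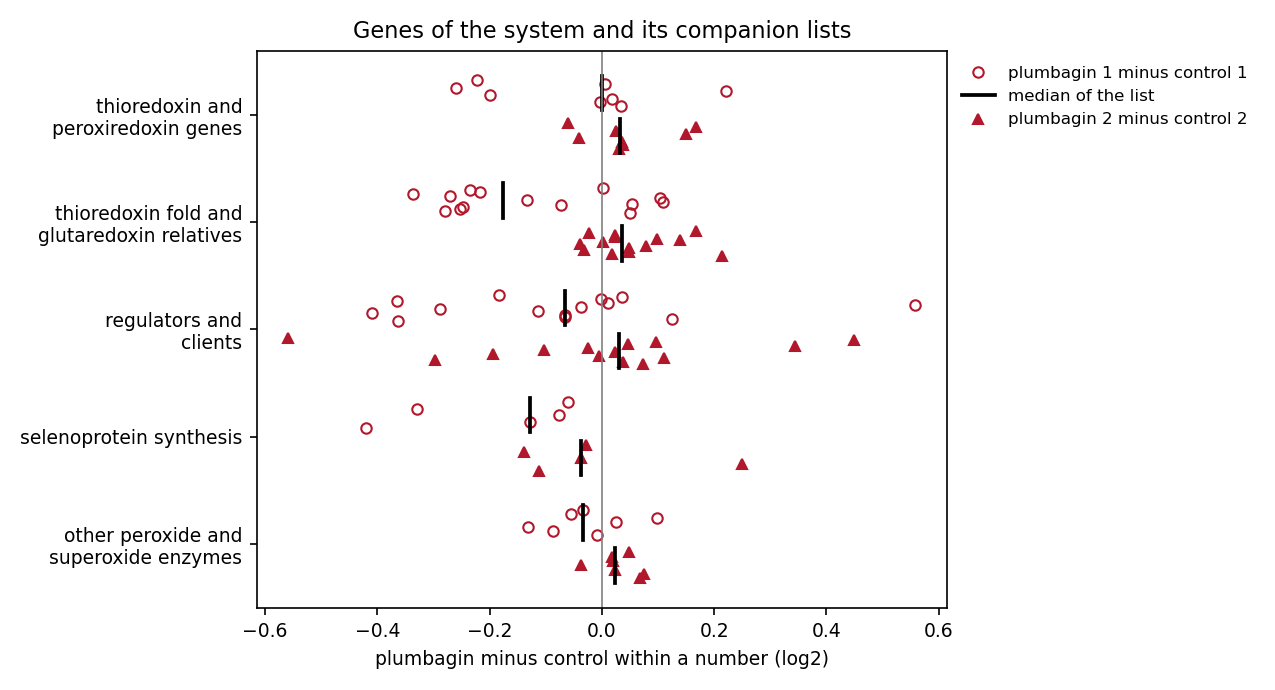
Plumbagin minus control within a replicate number (log2) for the 8 measured thioredoxin and peroxiredoxin genes and the 40 measured genes of 4 companion lists: open circles are number 1, filled triangles number 2, and black bars list medians. The medians of the thioredoxin and peroxiredoxin genes are 0.00 in number 1 and 0.03 in number 2, and those of the thioredoxin fold relatives -0.18 and 0.04. For all genes the number 1 medians were -0.17, -0.13 and -0.09 at means of 7 to 8, 8 to 9 and 9 to 10.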

How the data were processed

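Total RNA of B16F10 cells was labelled with biotin by 3' in vitro transcription and hybridised to Affymetrix mouse array strips, per the labels' protocols. The authors deposited a table of log2 values, with a row for each probe set and a column for each array. The submitters' processing notes name RMA along with Affymetrix Expression Console and Transcriptome Analysis Console; no version is given in the sources used here. RMA makes the arrays' distributions more alike, so a shift of most genes would be largely removed, and it compresses weak signals. The upper quartile was still 6.26 and 6.36 in plumbagin 1 and 2, against 6.35 and 6.34 in control 1 and 2. Groups and replicate numbers came from the sample titles. Of 45141 probe sets, 28898 had 1 gene symbol in the platform's annotation, which can be old; symbols were updated through the Entrez number against a RefSeq table of GRCm38.p6. Each of 17097 genes was represented by its brightest probe set on average, with no filter on dim genes. Differences were fitted with limma 3.58.1 (lmFit, eBayes, no covariates, two-sided) in R 4.3.3, with Benjamini-Hochberg adjustment over all genes and a threshold of 0.05. The code was tested on simulated data. Precision is limited by 2 arrays per group.

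The members and companion lists were chosen with earlier results of these data known, so no p-value over a list is given. Besides the members, up to 4 genes with the smallest p were named in each companion list; Srxn1, Txnip, Msrb1, Rrm1, Rrm2 and Rrm2b lie outside this rule. Alternatives were averaged probe sets, every probe set alone, 2 filters on dim genes, repeated quantile normalization, centring, cyclic loess, a variance prior with a trend or made robust, a block for the replicate number, and dropping each array in turn.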

Additional observations from a re-analysis of the deposited data

How the results depend on the processing

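With 2 arrays per group, no alternative gave a call: 0 members and 0 of all genes or probe sets passed under any of the 14, and the smallest adjusted p over all genes was 0.792, without plumbagin 2. 6 of the alternatives (both filters, both variance priors, the block and every probe set alone) leave the difference of a member's brightest probe set as it is and change only its p. Taking every probe set alone also adds the members' other probe sets to the counts and the median. Of the 61 member differences that an alternative could change, 50 kept their sign and 11 turned. Number of members higher (5 of 8) ranged from 0 (without plumbagin 1) to 5 when an array was left out. Members apart in the lower direction (1) were 2 with arrays centred on their medians, 3 of 18 with every probe set on its own, and 1 to 4 with an array left out; in the higher direction (0) they were 0 to 5 with an array left out, where fewer arrays make separation easier. The members' median (0.02) was -0.022 with probe sets averaged, -0.089 over every probe set, 0.050 after cyclic loess, and -0.12 to 0.12 with an array left out. Leaving out an array, differences ranged from -0.0013 to 0.37 for Txn1, -0.14 to 0.32 for Txnrd1, -0.055 to 0.12 for Prdx1, -0.10 to 0.13 for Prdx2 and -0.10 to 0.16 for Prdx3, while Txn2 (-0.22 to -0.02), Txnrd2 (-0.21 to -0.07) and Prdx4 (-0.23 to -0.01) stayed below 0. Prdx2 also turned with probe sets averaged (-0.10) and with centring (-0.0021). Among companions the ranges were -0.27 to 0.012 for Txnl4a, -0.29 to 0.023 for Glrx2, -0.24 to 0.13 for Secisbp2, -0.28 to 0.40 for Pstk, -0.13 to 0.025 for Gpx4, -0.041 to 0.10 for Cat, -0.15 to 0.12 for Sod1, -0.13 to 0.17 for Msrb1, -0.18 to 0.66 for Srxn1, -1.94 to 1.20 for Txnip, -0.47 to 0.20 for Rrm1, -0.32 to 0.18 for Rrm2 and -0.13 to 0.66 for Rrm2b. Companions whose sign held still moved widely with an array left out: -0.31 to -0.00082 for Txndc9, -0.31 to -0.012 for Sesn2, -0.35 to -0.070 for Msrb2, -0.28 to -0.031 for Msrb3, -0.29 to -0.071 for Msra, -0.39 to -0.14 for Eefsec, -0.37 to -0.098 for Sephs2, 0.0023 to 0.12 for Gpx8 and 0.076 to 0.17 for Txndc17. Cat (-0.0029), Sod1 (0.023) and Rrm2b (-0.038) also turned with probe sets averaged, and Sod1 with repeated quantile normalization (0.010) and cyclic loess (0.020). The causes were not tested. Where an array was left out, its lone partner was given the spread of the other group.

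With the replicate number as a block, 0 members and 0 of all genes passed (434 of all genes at an unadjusted p under 0.05, against 169 without it). Txn1 then differed by 0.19 ± 0.08 (SE, adjusted p = 0.919 by limma). Over all genes, control 1 minus control 2 correlated with plumbagin 1 minus plumbagin 2 (r = 0.536, across genes, which are not independent), but the labels do not say that a number marks a shared culture or day. The block changed no call.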

Other observations

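The subunits of ribonucleotide reductase, which makes deoxynucleotides and can be recharged by thioredoxin, are given as values chosen after they were seen. Rrm1 had log2 values of 10.01 and 9.65 in plumbagin 1 and 2, against 10.29 and 9.63 in control 1 and 2. Rrm2, the S-phase small subunit, had 10.30 and 9.80 in plumbagin 1 and 2, against 10.34 and 9.90 in control 1 and 2. Both number 1 arrays were above both number 2 arrays for each of these genes. Rrm2b, the small subunit induced by p53, lay the other way, with 7.29 and 7.51 in plumbagin 1 and 2, against 6.73 and 7.53 in control 1 and 2. The treatment differences were -0.13 ± 0.27 (SE) for Rrm1, -0.07 ± 0.24 for Rrm2 and 0.27 ± 0.29 for Rrm2b.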
